A study of Mus musculus with 12 samples.

Results

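Secreted products of the exocrine pancreas were measured in regulatory T cells (Tregs) that had been sorted from pancreatic islets and from spleen. The 10 genes are Ctrb1, Pnlip, Cpa1, Cpb1, Clps, Cela2a, Cela3b, Prss2, Try4 and Reg1. They were chosen as products of acinar cells, the enzyme-secreting cells of the pancreas, so that their level gives a measure of pancreatic RNA in the sorts. All 10 were found by symbol among the 24417 genes of each table. The rule picks genes by name and applies no threshold to measured values, although earlier results of these data were known when the list was made.

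The cells came from NOD mice, a strain prone to autoimmune diabetes, at 6.8 weeks of age. The animals were two-TCR retrogenic: T cell receptor (TCR) genes had been put into bone marrow stem cells, and the mice expressed 2 receptors for insulin, 4-8 and 12-4.4m1. The design text speaks of high and low affinity Tregs and lists the receptors in that order. The 4 groups (4-8 islets, 4-8 spleen, 12-4.4m1 islets, 12-4.4m1 spleen) have 3 RNA-seq libraries each, 12 in all. Neither the number of mice or cells behind a library nor the independence of the libraries is given in the labels, so the spread that the p-values use may be technical.

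Acinar cells surround the islets and fill most of the pancreas. They store digestive enzymes in granules, most of them as inactive precursors, and secrete them into ducts that lead to the gut. Their transcripts are among the most abundant messages of the pancreas, and T cells are not a known source of them. In bulk RNA, fewer acinar cells and less acinar RNA per cell cannot be told apart, nor can whole cells and free RNA.

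The promoters of 4 of these genes are shown because the members were found together in the islet libraries and because acinar genes are known targets of PTF1, a factor that binds an E-box (CANNTG) near a TC-box (core TGGGAA, or TTCCCA on the other strand). The sequences are the 250 bases before the RefSeq transcript start on GRCm38.p6, written 5′ to 3′ on the gene's strand. Capitals mark an E-box and a TC-box core at most 20 bases apart, or a TATA box (TATAAA).
Ctrb1, chr8:111691011-111691260, minus strand: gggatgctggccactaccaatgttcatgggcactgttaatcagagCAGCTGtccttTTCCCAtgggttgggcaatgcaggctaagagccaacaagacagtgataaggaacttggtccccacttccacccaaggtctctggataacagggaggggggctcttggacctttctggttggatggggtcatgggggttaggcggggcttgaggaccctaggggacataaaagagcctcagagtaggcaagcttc
Cpa1, chr6:30638968-30639217, plus strand: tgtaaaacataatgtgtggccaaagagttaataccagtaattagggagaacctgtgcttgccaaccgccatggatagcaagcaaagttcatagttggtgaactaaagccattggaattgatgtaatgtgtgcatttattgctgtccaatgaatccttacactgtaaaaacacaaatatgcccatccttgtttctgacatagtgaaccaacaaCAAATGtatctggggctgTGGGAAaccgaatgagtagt
Prss2, chr6:41521526-41521775, plus strand: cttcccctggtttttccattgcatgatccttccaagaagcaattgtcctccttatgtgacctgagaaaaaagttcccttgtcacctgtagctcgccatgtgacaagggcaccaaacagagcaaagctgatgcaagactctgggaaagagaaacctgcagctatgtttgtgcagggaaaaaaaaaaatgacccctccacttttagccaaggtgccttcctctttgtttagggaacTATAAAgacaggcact
Try4, chr6:41302022-41302271, plus strand: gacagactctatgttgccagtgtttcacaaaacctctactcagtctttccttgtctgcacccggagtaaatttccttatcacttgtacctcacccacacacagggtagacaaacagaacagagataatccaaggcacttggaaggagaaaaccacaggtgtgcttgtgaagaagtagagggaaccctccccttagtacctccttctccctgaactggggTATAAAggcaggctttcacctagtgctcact

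RefSeq promoters of 300 bases, from 250 before to 50 after the start, were matched for 9 of the 10 genes, all but Clps. A search of both strands found the E-box and TC-box pair in 3 of the 9 (Ctrb1, Cpa1 and Reg1), against 5.21% of 27025 promoters of the same length. The longer TC-box TGGGAAA, which contains the core, was found in 5 of the 9, against 8.01% of all promoters. The TATA box sequence was found in 5 of the 9, against 14.2% of all, and Prss2 and Try4 are among them. That of Cpb1 lies in the 50 bases after the start. The E-box alone was present in 8 of the 9 and in 72.1% of all promoters. The TC-box core alone was in 6 of the 9 and in 25.5% of all. A match of letters is a description and not a bound site.

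The positions of the members were read from the annotation. On GRCm38 (GENCODE vM21), Try4 lies on chromosome 6 from 41302269 to 41305532 and Prss2 from 41521787 to 41525079, both on the plus strand. Both stand inside the T cell receptor beta locus, between the variable segment Trbv30 and the constant gene Trbc1. Try4 begins 20.3 kb after the variable segment Trbv30, and Prss2 ends 8.1 kb before the diversity segment Trbd1. Whether this position affects their counts was not tested. The other members lie outside this locus. Cpa1 (30639218 to 30645363, plus strand) and Reg1 (78422711 to 78428667, plus) are elsewhere on chromosome 6. Cela2a (141814962 to 141826160, minus) and Cela3b (137420999 to 137430540, minus) are on chromosome 4. Ctrb1 is on chromosome 8 (111686519 to 111691010, minus), Pnlip on 19 (58652498 to 58681788, plus), Cpb1 on 3 (20248264 to 20275733, minus) and Clps on 17 (28558149 to 28560766, minus). Cela2a overlaps Casp9 by 1015 bases on the opposite strand, and no source used here states that counting used the strand.

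The authors' tables give a mean normalized count (baseMean) over the 6 libraries of each of 4 comparisons, an rlog value per library (log2 counts in which low values are shrunk towards the gene's mean) and an FPKM per group (fragments per length of transcript and depth of library). The whole reads of each library were recovered from the means: 1 read adds a fixed amount per library, and for each of the 10 members 1 set of whole reads met the means of all 4 tables. The FPKM of a group was listed at 0 exactly where 0 reads were recovered, in 80 of 80 group values of the members. It did not hold for every gene of the other lists (Hbb-b2, below, is an exception). Below, a normalized count is the recovered reads of a library times the value of 1 read in that table. Such counts carry counting error at the least, and reads of amplified cDNA without molecular identifiers are not independent molecules.

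The authors' totals of mean normalized counts over all genes were 898995 to 1316454 per table, and the size factors of the 6 libraries of the islet table ran from 0.458 (4-8 replicate 2) to 2.10 (4-8 replicate 1). The files hold no library totals. In that table a single column of 4-8 carries a number that matches no title. The reads recovered for 4-8 replicate 3 in the tissue table met the islet means when put in that column, for all 10 members, so it is called replicate 3 below. The sorted cells carried Treg markers in every group, with an FPKM of Foxp3, the defining transcription factor of Tregs, between 154 and 170. Cd8a, a marker of cytotoxic T cells, had a mean of at most 0.301 normalized counts in any table, while Cd8b1, its partner chain, had 47 reads in islets and 72 in spleen, in 5 of 6 libraries of each tissue.

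At a mean normalized count below 10, the level at which genes were left out of the tests, stood Reg1 in the islet TCR table (7.61), and all 10 genes in the spleen TCR table. In the table of 4-8 islets against spleen Cpa1 (8.41), Cela3b (8.06) and Reg1 (2.78) were below it. In that of 12-4.4m1 Cpa1 (5.84), Cpb1 (8.97) and Reg1 (6.13) were. The highest mean of any member was that of Ctrb1 in the islet TCR table, at 82.0. The 10 genes together made up 0.0308% of the mean normalized counts of the islet TCR table and 0.000666% of those of the spleen TCR table. Both are small shares of the RNA, at depths where a member had between 0 and 177 reads in a library.

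The 6 islet libraries held 2109 reads of the 10 genes, and the 6 spleen libraries held 73. Of the 73, 69 were of Prss2, so 9 of the genes had 4 reads in all the spleen libraries together. Those 4 were 2 of Ctrb1 in 4-8 replicates 1 and 2, 1 of Cela2a in 4-8 replicate 3 and 1 of Cpb1 in 12-4.4m1 replicate 1. Pnlip, Cpa1, Clps, Cela3b, Try4 and Reg1 had 0 reads in every spleen library.

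**Figure D1:**
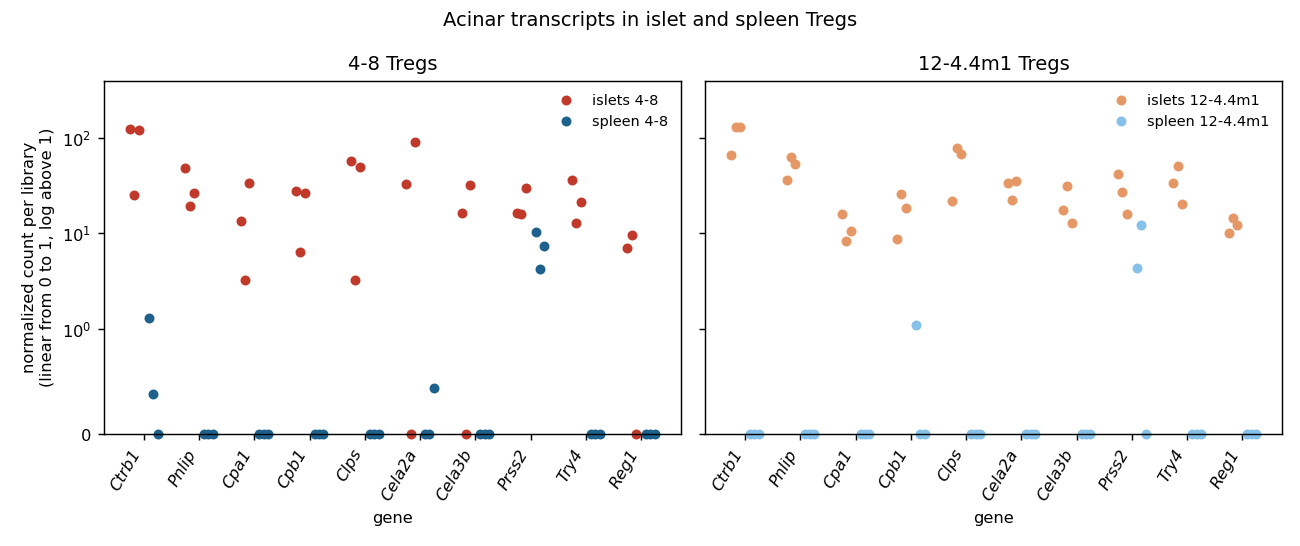
Normalized counts of the 10 genes (x axis) in each library of the 4-8 table (left) and the 12-4.4m1 table (right), on a y axis that is linear from 0 to 1 and logarithmic above, with 1 point per library. Spleen points lie at 0 for 6 genes in both panels, Prss2 has spleen points between 4.21 and 12.3 in 5 of 6 libraries, and Cela2a, Cela3b and Reg1 each have 1 islet library of 4-8 at 0.

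Among the proteases that cut inside proteins, Ctrb1, the precursor of chymotrypsin B, had the highest count. In the 4-8 table its normalized counts were 125, 25.6 and 123 in islet replicates 1 to 3 and 1.31, 0.383 and 0 in spleen. In the 12-4.4m1 table they were 67.1, 130 and 132 in islets and 0 in all 3 spleen libraries. No spleen library reached an islet library, and 4-8 replicate 2 was the lowest islet library. The pooled ratio of islets to spleen was 315 in 4-8, with an exact 95% counting interval of 86.3 to 2615, and at least 146 in 12-4.4m1 against a floor of 3 reads over the spleen group. On the rlog scale, where libraries with 0 reads take values up to 3.90, the difference was 2.16 ± 0.29 (SE, limma adjusted p = 9.69e-05) in 4-8 and 2.32 ± 0.21 (adjusted p = 3.00e-08) in 12-4.4m1.

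Try4, a trypsinogen, had 36.1, 12.8 and 21.4 normalized counts in 4-8 islets and 33.6, 51.4 and 20.6 in 12-4.4m1 islets, with 0 in each spleen library. Its ratio was at least 55.4 in 4-8 and at least 44.1 in 12-4.4m1, and its rlog difference was 0.88 ± 0.17 (adjusted p = 0.00370) and 1.097 ± 0.19 (adjusted p = 0.000330). Of the 50-base stretches of its transcript, 65.6% also occur in other genes, chiefly Try5 and Try10, so reads of these trypsinogens may be split among them. Try5 itself had 146 reads in the islet libraries and 0 in spleen.

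Prss2, the anionic trypsinogen, was the 1 member with more than 2 reads in spleen. Its spleen reads were 8, 11 and 17 in 4-8 and 4, 29 and 0 in 12-4.4m1, and its islet reads were 23, 5 and 17 and 29, 36 and 21. As normalized counts the 4-8 islets held 16.3, 16.0 and 30.3 and the 4-8 spleens 10.4, 4.21 and 7.42. The 12-4.4m1 islets held 42.3, 27.2 and 16.0 and the spleens 4.36, 12.3 and 0. The islet libraries were all above the spleen libraries in both tables. Pooled, the ratio was 3.10 (exact 95% counting interval 1.96 to 4.95) in 4-8 and 2.92 (1.93 to 4.51) in 12-4.4m1. Neither rlog difference passed: 0.40 ± 0.17 (limma adjusted p = 0.175) and 0.61 ± 0.19 (adjusted p = 0.0559), the second passing at an adjusted p of 0.0226 without 12-4.4m1 islet replicate 3. Only 7.83% of its 50-base stretches occur in other genes. Its intervals end below those of Ctrb1 and Cela2a in 4-8 and of Cpb1 in 12-4.4m1. For the members with 0 spleen reads, the ratios against the floor of 3 reads carry no counting interval. The lowest of those ratios are 10.7 (Reg1 in 4-8) and 13.5 (Cpa1 in 12-4.4m1), above the ends of the Prss2 intervals.

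The elastases were Cela2a and Cela3b. Cela2a had 33.3, 0 and 90.8 normalized counts in 4-8 islets, against 0, 0 and 0.437 in spleen, and 33.6, 22.7 and 35.8 in 12-4.4m1 islets, against 0 in spleen. Replicate 2 of 4-8 islets, at 0, lay within the spleen range by counts, although its rlog value of 2.94 stood above the spleen values of 2.59 to 2.78. Its rlog difference was 1.29 ± 0.31 (adjusted p = 0.0155) in 4-8 and 0.99 ± 0.17 (adjusted p = 0.000435) in 12-4.4m1. The 4-8 call was lost without islet replicate 1 (adjusted p = 0.0630), spleen replicate 1 (0.0604) or spleen replicate 2 (0.0583). In the authors' deposited DESeq2 table the same gene differed by 0.25 ± 0.30 in 4-8 (adjusted p = 0.784), while their FPKM was 44.0 in islets and 0.150 in spleen. Of its 50-base stretches 25.6% occur in Ctrc or Casp9.

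Cela3b had 16.3, 0 and 32.0 normalized counts in 4-8 islets and 17.5, 31.8 and 13.0 in 12-4.4m1 islets. Its spleen libraries were all at 0. It was below the filter in 4-8, where its ratio was at least 33.9, and passed in 12-4.4m1 with an rlog difference of 0.71 ± 0.17 (adjusted p = 0.00817) and a ratio of at least 26.5. That call was lost without spleen replicate 2 (adjusted p = 0.0533). With the 2 styles of library title as a term, only islet replicate 3 is set against spleen, so that fit was not used to judge the call.

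The carboxypeptidases, which trim residues from the end of a protein, were Cpa1 and Cpb1. Cpa1, which takes off aromatic and aliphatic residues, had 13.5, 3.21 and 33.8 normalized counts in 4-8 islets and 16.0, 8.32 and 10.7 in 12-4.4m1 islets, with 0 in all 6 spleen libraries. It was below the filter in both tissue tables, and its ratio was at least 32.2 and at least 13.5. Cpb1, which takes off basic residues, had 27.6, 6.41 and 26.7 in 4-8 islets against 0 in spleen. Its rlog difference there was 0.78 ± 0.18 (adjusted p = 0.0102) and its ratio at least 46.3. In 12-4.4m1 it was below the filter, with 8.75, 25.7 and 18.3 in islets and 1.09, 0 and 0 in spleen.

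The lipid-digesting pair rose in both tissue comparisons. Pnlip, the pancreatic lipase that splits triglycerides, had 48.2, 19.2 and 26.7 normalized counts in 4-8 islets and 36.5, 63.5 and 54.1 in 12-4.4m1 islets. Clps, colipase, which holds that lipase on fat droplets, had 58.1, 3.21 and 49.8 and 21.9, 78.6 and 67.8. Both were at 0 in each spleen library, so no library of 1 tissue overlapped the other. For Clps in 4-8 this rests on 1 read in islet replicate 2. Ratios were at least 73.6 and 67.3 for Pnlip and at least 91.8 and 77.7 for Clps, in 4-8 and 12-4.4m1. The rlog differences were 1.11 ± 0.18 (adjusted p = 0.000757) and 1.46 ± 0.19 (adjusted p = 9.08e-06) for Pnlip. For Clps they were 1.24 ± 0.26 (adjusted p = 0.00638) and 1.53 ± 0.22 (adjusted p = 4.99e-05).

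Reg1, a secreted lectin-like protein of acinar cells, had 7.08, 9.62 and 0 normalized counts in 4-8 islets and 10.2, 14.4 and 12.2 in 12-4.4m1 islets, and 0 in the spleen libraries. Replicate 3 of 4-8 held none of its reads although that library held 244 reads of the members. The ratio was at least 10.7 in 4-8 and at least 15.7 in 12-4.4m1.

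Counted over the members, 6 of the 7 tested were higher in islets in 4-8, where limma called 5.14% of all 8981 genes tested higher, 2.84% lower and 7.98% in either direction. In 12-4.4m1 6 of 7 were higher, where 4.63% of 8438 genes were called higher, 2.18% lower and 6.81% in either direction. The member not called was Prss2 in both. The median rlog difference of the 7 was 1.11 in 4-8 and 1.097 in 12-4.4m1, against -0.01 and -0.00 over all genes tested. The 7 had passed a filter on their mean, which the islet libraries set for all but Prss2, so their share is a description. By normalized counts the libraries of the tissues did not overlap for 6 of 7 members in 4-8 and 7 of 7 in 12-4.4m1. By rlog they did not for 7 of 7 in both, where 27.4% and 24.1% of all genes tested did not overlap. The member on which the measures differ in 4-8 is Cela2a. It had 0 reads in islet replicate 2, the library with the smallest size factor of that table (0.312). In the authors' deposited tables DESeq2 put 5 of 7 members with an adjusted p under 0.05 in 4-8 and 6 of 7 in 12-4.4m1, and Cuffdiff put 7 of 10 and 6 of 9 under a q of 0.05. Ctrb1 in 4-8, at a Cuffdiff q of 0.223, was not among the latter. The share of all genes under these thresholds was not counted for DESeq2 or Cuffdiff, so their counts are a description. Islet libraries have titles in 2 styles, and the spleen libraries share a single style. With the style as a term 6 members were called in 4-8, where the term marks islet replicate 2 alone. In 12-4.4m1 the term leaves only islet replicate 3 to set against spleen, so no count is given.

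**Figure D2:**
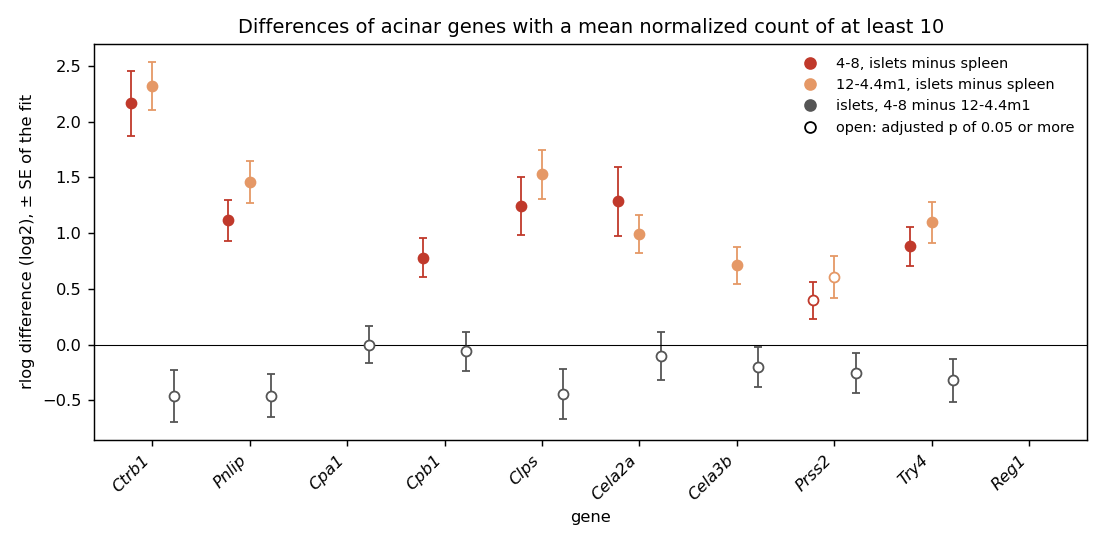
Rlog differences (log2, y axis) with the SE of the limma fit for the members (x axis) whose mean normalized count was at least 10, in both tissue comparisons and the islet TCR comparison, with open points where the adjusted p was 0.05 or more. Filled points, between 0.71 and 2.32, are confined to the tissue comparisons, and the islet TCR differences run from -0.46 to 0.00.

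A second question is whether the islet sorts of the TCRs carried the same amount. Summed over the 10 genes, normalized counts in the islet TCR table were 257, 65.5 and 292 in 4-8 replicates 1 to 3 and 269, 424 and 355 in 12-4.4m1 replicates 1 to 3. The mean was 205 ± 122 (SD, n = 3) for 4-8. For 12-4.4m1 it was 349 ± 77.4 (SD, n = 3), a ratio of 1.70 to 4-8. Replicate 2 of 4-8 stood far below the other 5 libraries, and it also had the smallest size factor. Without it the ratio was 1.27. The sum of replicate 3 of 4-8 lay within the range of the 12-4.4m1 libraries, so the groups overlapped.

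**Figure D3:**
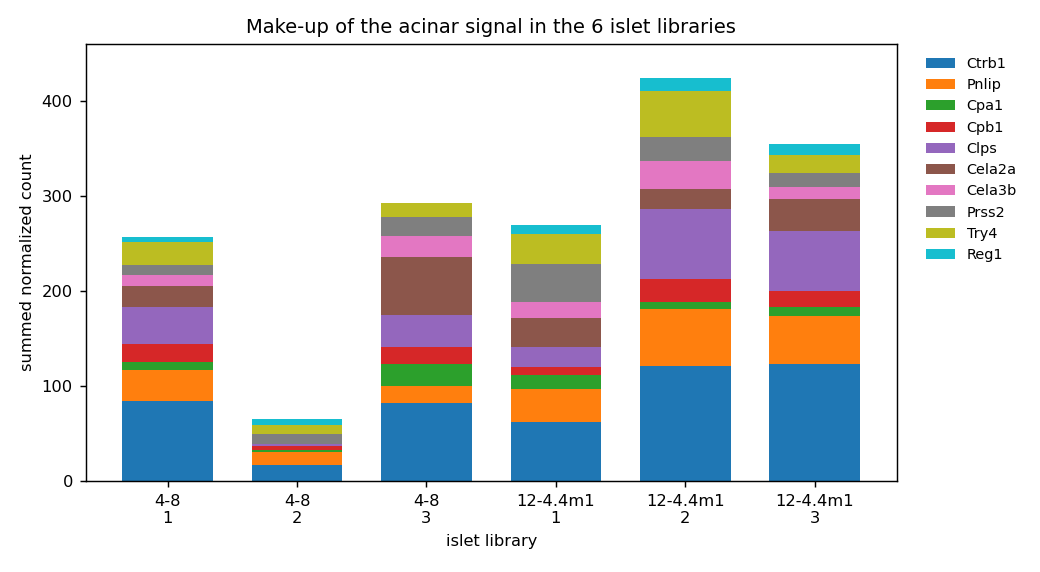
Summed normalized count of the 10 genes (y axis) in each of the 6 islet libraries (x axis, TCR and replicate number) of the islet TCR table, with 1 colour per gene. Sums run from 65.5 (4-8 replicate 2) to 424 (12-4.4m1 replicate 2), and Ctrb1 takes up the largest part of each bar.

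No member passed the test between the TCRs in islets. Limma called 0 of the 9 it tested, where it called 0.256% of 8212 genes higher in 4-8, 0.11% lower and 0.365% in either direction. The authors' deposited tables gave 0 of 9 by DESeq2 and 0 of 9 by Cuffdiff, which left out Cpa1 and tested Reg1. At an unadjusted p under 0.05 stood 1 member by limma, 0 by DESeq2 and 3 by Cuffdiff. With no filter, limma put 3 of 10 members under it. The share of all genes at that p, or under the adjusted thresholds of DESeq2 and Cuffdiff, was not counted. These counts are therefore a description. Pnlip was the member under 0.05 by limma with the filter. It had 32.4, 13.1 and 18.0 normalized counts in 4-8 and 34.2, 59.3 and 50.5 in 12-4.4m1, so its groups did not overlap. Its rlog difference was -0.46 ± 0.19 (limma adjusted p = 0.602). Reg1, below the filter and untested, had 4.76, 6.55 and 0 against 9.57, 13.4 and 11.4 and did not overlap either. Groups that do not overlap by rlog were seen for 11.9% of all genes tested.

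None of the other 8 came closer to the threshold. Ctrb1 had 84.3, 17.5 and 82.7 normalized counts in 4-8 and 62.9, 121 and 123 in 12-4.4m1, with an rlog difference of -0.46 ± 0.23 (adjusted p = 0.745). Clps had 39.1, 2.18 and 33.6 against 20.5, 73.5 and 63.3, a difference of -0.44 ± 0.23 (adjusted p = 0.753). Try4 and Prss2 differed by -0.32 ± 0.19 (adjusted p = 0.795) and -0.25 ± 0.18 (adjusted p = 0.848). Cpa1, Cpb1, Cela2a and Cela3b differed by 0.00 to -0.20, with adjusted p from 0.897 to 0.999. Over the 9 the median was -0.25, against -0.00 over all genes tested. An adjusted p above the threshold does not show that the sorts carried equal amounts.

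Between libraries the make-up of the signal varied. The share of Ctrb1 in the member reads of a library was 32.8% (95% Wilson interval 29.0% to 36.9%), 26.7% (14.2% to 44.4%) and 28.3% (23.0% to 34.2%) in 4-8 replicates 1 to 3. It was 23.4% (18.0% to 29.7%), 28.7% (25.2% to 32.4%) and 34.7% (30.6% to 38.9%) in 12-4.4m1. Cela2a, by contrast, made up 20.9% (16.3% to 26.4%) of the member reads of 4-8 replicate 3 and 5.0% (3.52% to 7.05%) of those of 12-4.4m1 replicate 2, intervals that do not meet. Prss2 made up 14.7% (10.4% to 20.3%) in 12-4.4m1 replicate 1 and 4.21% (2.77% to 6.35%) in replicate 3. The intervals cover counting error only. By normalized count, 12-4.4m1 replicate 2 was the highest islet library for 6 of the 10 genes and 4-8 replicate 2 the lowest for 9.

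Per length, the order of the members in islets was led by Ctrb1 and Clps. In 12-4.4m1 the authors' FPKM was 183 for Clps, 149 for Ctrb1, 47.6 for Cela2a, 45.1 for Prss2, 38.0 for Pnlip and 36.4 for Try4. Below these came Cela3b at 23.9, Reg1 at 18.2, Cpb1 at 12.8 and Cpa1 at 7.56. In 4-8 the first places were Ctrb1 at 95.7 and Clps at 94.5, then Cela2a at 42.5, Prss2 at 22.6, Try4 at 19.6 and Pnlip at 17.1. Cela3b at 13.2, Reg1 at 13.0, Cpb1 at 10.9 and Cpa1 at 8.29 followed. The FPKM is 1 value per group, so neighbours in this order have no spread to be set against, and Cpa1 was the only member with a higher value in 4-8. In spleen, Prss2 was at 8.42 in 4-8 and 9.76 in 12-4.4m1 and the others at 0 to 0.292.

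Other exocrine genes were also found mainly in the islet libraries. Of 41 further genes of the exocrine pancreas fixed as a list, 39 were in the tables, of which 28 had at least 1 read in islets and 10 in spleen, with 1217 and 86 reads. Of those tested, 4 of 5 were called higher in islets in 4-8 (median difference 0.79) and 2 of 2 in 12-4.4m1 (median 0.96), where 5.14% and 4.63% of all genes tested were. Most of these genes passed the filter through the islet libraries alone, so this share too is a description. Between the TCRs in islets limma called 0 of 6, with 1 (Cel) at an unadjusted p under 0.05. The share of all genes at that p was not counted. Named by their mean count, Try5, Cel (carboxyl ester lipase), 2210010C04Rik, Ctrl (a chymotrypsin-like protease), Rnase1 (pancreatic ribonuclease) and Cela1 (an elastase) had 146, 153, 119, 96, 116 and 100 islet reads. Their spleen reads were 0, 0, 1, 8, 0 and 37. Cela1 was the 1 of the 5 not called in 4-8, with a difference of 0.31 ± 0.17 (adjusted p = 0.290). Of the 4 acinar transcription factors of the list, named for their role after their values were seen, Ptf1a and Nr5a2 had 0 reads in all 12 libraries, Rbpjl had 6 in islets, all in 12-4.4m1 replicate 2, and 0 in spleen, and Bhlha15 had 4 in each tissue.

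Islet endocrine transcripts were few beside them, and the insulin genes are named here for their role, outside the rule for naming genes and with their values seen. Of 26 endocrine genes, 15 had 0 reads in all 6 islet libraries, and the list held 120 islet reads, against 2109 for the 10 acinar genes. Ins1 and Ins2, the insulin genes, had 4, 0 and 1 and 1, 0 and 2 reads in 4-8 islets, 0, 3 and 17 and 0, 5 and 21 in 12-4.4m1 islets, and 0 in spleen. Replicate 3 of 12-4.4m1 held 38 of the 54 insulin reads. The endocrine list had 271 spleen reads, 183 of them of Gcg (proglucagon), and 138 of these in 12-4.4m1 replicate 2. By mean count the next members were Scg5 and Nnat, at up to 8.82 and 4.67.

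Markers of other cells and of handling were read in the same libraries. The duct list (10 genes) showed no common direction: in 4-8 Spp1 was higher by 1.41 ± 0.20 and Epcam differed by -0.87 ± 0.18 in islets, both called, Muc1 was not called, the keratins Krt19, Krt8, Krt7 and Krt18 and the channel gene Cftr were listed at an FPKM of 0 in both islet groups (Krt18 had 18 reads in spleen), and in 12-4.4m1 0 of 2 tested were called. Spp1 was also the 1 gene of these lists called between the TCRs in islets, higher in 4-8 by 0.78 ± 0.18 (limma adjusted p = 0.0365). Of the 14 genes of heat shock and dissociation, led by Hsp90aa1, Hspa8 and Dusp1, 12 of 13 tested were higher in islets in 4-8 and 13 of 14 in 12-4.4m1, with summed FPKM of 4339 and 5703 in islets against 1100 and 1339 in spleen. Over all genes tested, limma called 5.14% and 4.63% higher, the shares to set beside these counts and those of the Treg list below. Between the TCRs in islets 0 of the 14 were called, with a median difference of -0.40, against -0.25 for the 9 acinar members tested. By rlog the groups did not overlap for 7 of the 14, against 11.9% of all genes tested. The part of these 14 genes in the acinar result was not tested. For myeloid cells (11 of 12 genes listed, by mean count led by Cd68, Itgam and C1qa) the summed FPKM was 39.5 and 41.6 in islets and 26.6 and 31.2 in spleen. CD8 T cell genes (2 genes) were at 0.893 and 10.8 against 4.44 and 3.40. Of 7 erythroid genes 3 had an FPKM, which summed to 0.0965 and 0 in islets and to 11.0 and 5.26 in spleen. Hbb-b2 gave 10.3 and 4.73 of the spleen sums although 0 of its reads were recovered in any library, and Alas2 gave 0.701 and 0.531. Those of endothelium and stroma (10 genes, led by Pecam1, Col1a1 and Kdr) were at 3.87 and 9.68 against 11.5 and 11.2. Treg and T cell genes (10 of 11 listed, led by Ikzf2, Tnfrsf18 and Cd3g), of which 3 of 10 were higher in islets in 4-8 and 2 of 10 in 12-4.4m1, stood at 6711 and 5577 in islets and 5144 and 4679 in spleen, against 337 and 562 and 8.72 and 10.1 for the 10 acinar genes, each pair given as 4-8 then 12-4.4m1.

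**Figure D4:**
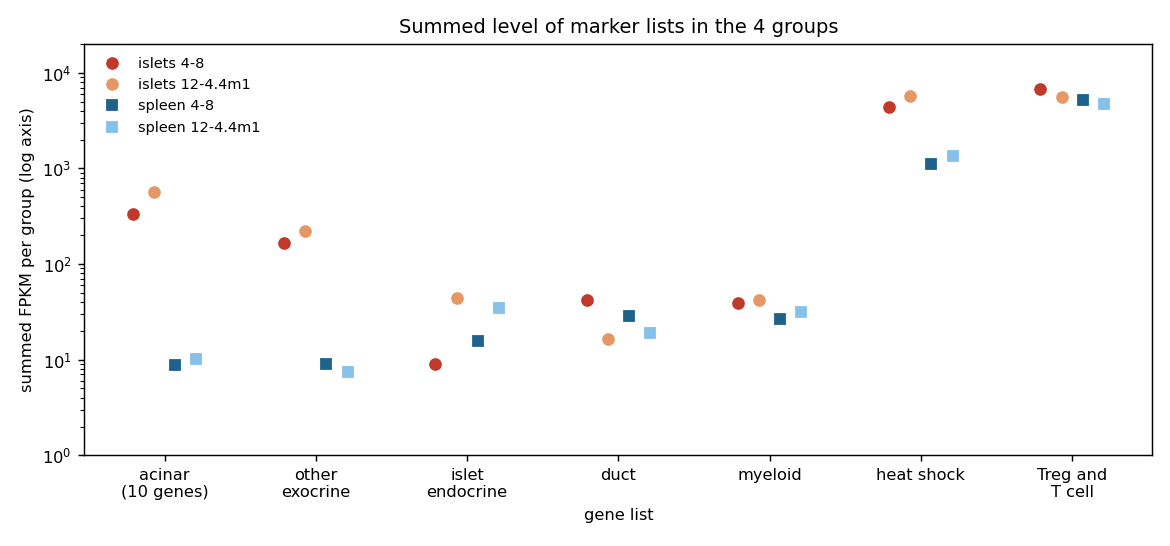
Summed FPKM of 7 gene lists (x axis) in the 4 groups on a logarithmic y axis, with 1 point per group, the authors' value without replicates. The acinar genes stand at 337 and 562 in islets and 8.72 and 10.1 in spleen, while the Treg and T cell genes stand between 4679 and 6711 in all 4 groups.

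Across the 6 islet libraries, the genes whose rlog values ran most like the mean of the 9 members at or over the filter were Cwc15, Ripk3, Ctdnep1, Tex264 and Lrrcc1, with Pearson r of 0.98, 0.98, 0.98, 0.97 and 0.97 among 8203 genes. All 5 were lowest in 4-8 replicate 2, as was the mean of the members, at 4.14 against 4.55 to 4.81 elsewhere, and that library also had the smallest size factor. Of the 8203 genes, 69 had an r of at least 0.9. The exocrine genes Cela1, Cel, Try5, Ctrl, 2210010C04Rik and Rnase1 had an r of 0.88, 0.78, 0.70, 0.52, 0.22 and 0.03. With 6 libraries whose size factors differ, these values are a description.

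Between the TCRs in spleen there was little to compare. All 10 members were below the filter, 6 were at a mean of 0, and Prss2 had the highest mean, at 8.11. As normalized counts of the spleen table the members summed to 8.64 ± 3.83 in 4-8 (SD, n = 3). The sum was 8.89 ± 9.31 in 12-4.4m1 (SD, n = 3), where replicate 3, the library with the smallest size factor of that table (0.303), held 0 reads. With the filter lifted, 4 members could be fitted, and limma called 0 of them, with 0 at an unadjusted p under 0.05. That fit called 46 of 14043 genes, 22 of them higher in 4-8 and 24 lower. Of the 9108 genes at or over the filter, 0.209% were called higher in 4-8, 0.22% lower and 0.428% in either direction. The authors' DESeq2 and Cuffdiff called 0, with 0 at an unadjusted p under 0.05, and Cuffdiff tested Prss2 alone of the members.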

How the data were processed

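RNA-seq libraries were made, per the labels' protocols, by Triton X-100 lysis of the sorted cells, reverse transcription, cDNA amplification and Nextera XT. Per the submitters' processing notes, the submitters used STAR 1.1.0, TopHat 1.0.0, DESeq2 1.1.0, DESeq and Cufflinks on mm10 (GRCm38), with no roles given. For each of 4 comparisons the authors deposited rlog values on a log2 scale per library, a DESeq2 table (mean normalized count, a depth-scaled signal, with log2 fold change, Wald score, p-value and adjusted p) and a Cuffdiff table (FPKM per group, p-value and q-value). Each table was normalized on its own, and 0 columns were left out.

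Rlog values of 3 against 3 libraries were fitted with limma 3.58.1 (R 4.3.3, trend, 2-sided) over genes with a mean normalized count of at least 10, with Benjamini-Hochberg adjustment and a threshold of 0.05. Alternatives were other filters (none, 5, 20), centring, no trend, a replicate block, the title style as a term and leaving out each library. Whole reads were recovered within 1e-07 plus 4e-09 per read of the sum over 6 libraries, and 119 of 121 listed genes tried had 1 solution and 2 had none (Cd68 and Itgam). The recovery and the limma fit were tested on simulated data. Shared 50-base stretches were counted in GENCODE vM21 transcripts. Floors are 3 reads over a group. Intervals are exact (Clopper-Pearson) for ratios and Wilson for shares.

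All 10 members are named, with up to 6 other exocrine genes by mean count, up to 3 of each other list, and the 5 genes most like the members. Outside this rule, and with values seen, stand the insulin genes, the acinar transcription factors, the keratins and Cftr of the duct list, Foxp3 and Hbb-b2. The members and lists were chosen with earlier results of these data known. One marker list is not reported here.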

Additional observations from a re-analysis of the deposited data

How the results depend on the processing

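Between the TCRs 0 members were called in islets under all alternatives run. In spleen 0 were called, but 4 were tested with no filter, 1 with a filter at 5 and 0 otherwise, so the count says nothing of stability there. Between tissues 6 of 7 and 6 of 7 members were called (4-8 and 12-4.4m1). With no filter they were 7 of 10 and 7 of 10, where 396 of 14028 and 355 of 13696 genes were called higher. A filter at 5 gave 8 of 9 and 9 of 10, against 460 of 9940 and 380 of 9599 genes. A filter at 20 gave 2 of 2 and 3 of 3 (fewer genes tested), against 443 of 7621 and 401 of 6814 genes. All members but Prss2 passed these filters through the islet libraries, so the counts are a description. Leaving out 1 library gave 5 to 6 and 5 to 7 of 7. The replicate block gave 6 and 7 of 7 and added Prss2 in 12-4.4m1 (limma adjusted p = 0.0397). In no comparison did every same-numbered pair of libraries correlate above 0.1 (r from -0.118 to 0.127 by the labels). The islet 4-8 column called replicate 3 here had an r of 0.209 with 12-4.4m1 replicate 3. The numbers were not taken to pair the libraries, and the replicate block in islets left that column and 12-4.4m1 replicate 3 unpaired. In spleen each library correlated best with its own number (0.120, 0.086 and 0.075), a hint from the data and not from the design. The block called 54 genes in islets and 78 in spleen, against 30 and 39, and 729 and 724 between tissues against 717 and 575. With the title style as a term 52 were called in islets and 1212 between tissues in 4-8, where the term marks islet replicate 2 alone. In spleen, no trend gave 17, and leaving out replicate 2 of both groups gave 11. Leaving out 1 library gave 9 to 44 in islets, 14 to 56 in spleen, 306 to 1211 in 4-8 and 288 to 610 in 12-4.4m1. For the counts that moved by more than 1.5 times the cause was not tested. The median member difference in rlog was -0.23 in islets, -0.00 in spleen, 0.83 in 4-8 and 0.85 in 12-4.4m1 over all members with a value. It was 1.097 in 12-4.4m1 over members at or over the filter. As the log2 ratio of mean summed normalized counts from recovered reads, an alternative chosen after seeing the data, it was -0.77, -0.042, 5.24 and 5.98. Most spleen reads in these sums are of Prss2. Without Prss2 the ratios of islets to spleen were 400 in 4-8 and 951 in 12-4.4m1, against 37.7 and 63.1 with it. The ratios without Prss2 rest on 4 spleen reads. Leaving out 1 library gave medians of -0.33 to -0.17 in islets, 0.69 to 1.011 in 4-8 and 0.77 to 0.89 in 12-4.4m1. At this depth, with 1 read worth 0.476 to 2.18 normalized counts in the islet table, a member at 0 is not shown to be absent.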
